A study of Mus musculus with 27 samples.

Results

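The 42 mitosis genes are the genes of the deposited table whose symbols match a fixed list of factors that build the mitotic spindle, compact and hold the chromosomes, drive entry into and exit from mitosis, or divide the cell. All 42 were found among 54532 genes, and all 42 had a mean over the 27 libraries of 0.5 FPKM or more, the limit set for testing, as did 14932 genes in total. FPKM is the number of sequenced fragments assigned to a gene, divided by its exon length in kilobases and by a denominator for the library. In the deposited values this denominator was not the total of fragments on genes. That total was 1.08 to 1.16 times the denominator on day 0 and 0.91 to 0.97 times on days 2 and 4. The list was drawn up by function. The libraries held 15815013 to 24264097 fragments assigned to genes, and each mitosis gene had between 56 and 6307 fragments in a library.

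The libraries were bulk RNA-seq of mouse embryonic fibroblasts (MEFs) on the way to induced neurons (iNs), sampled on days 0, 2, and 4. On each day, 3 libraries labelled as biological replicates came from WT cells, 3 from *Per1*-/- cells, and 3 from *Per2*-/- cells. MEFs were prepared from mid-gestation embryos of WT mice and of B6.129-*Per1*tm1Drw/J and B6.129-*Per2*tm1Drw/J mice, which carry the deletions in the germline, and 4 embryos of undetermined sex were pooled per dish. All 27 libraries, those of day 0 included, came from cells transduced 3 days before day 0 with lentiviruses for doxycycline-inducible neuronal transcription factors, Brn2 and Myt1l among them, and for the transactivator rtTA. On day 0, medium with 10% serum was replaced by serum-free N3 medium with doxycycline, so the day comparisons hold serum withdrawal, induction of the factors, and time together, and these cannot be told apart. The samples were labelled as induced neurons, but WT day 0 libraries held the fibroblast collagen gene *Col1a1* at 1083 to 1422 FPKM. On days 2 and 4, *Col1a1* stood at 1208 to 2078 and 1484 to 2367 FPKM in WT libraries. Of 10 fibroblast markers, *Col1a1* among them, 4 had risen and 2 had fallen by day 2 in WT cells. By day 4, 6 had risen and 1 had fallen there. *Rbfox3*, which marks mature neurons, stood at 0 to 0.0133 and 0.0919 to 0.110 FPKM in WT libraries on days 2 and 4. Of 11 tested neuronal markers, transduced factors included, 8, 9, and 8 had risen by day 2 in WT cells, *Per1*-/- cells, and those labelled *Per2*-/-. By day 2, 1 marker had fallen in WT cells and 1 in those labelled *Per2*-/-. By day 4 it was 10, 10, and 10 that had risen. Of all 14932 tested genes, 3101, 3101, and 2792 had risen by day 2 and 3414, 3378, and 3218 by day 4. *Per1* transcript was found in *Per1*-/- libraries at 3.23 to 4.96 FPKM on day 0, against 5.44 to 6.33 in WT libraries. *Per2* transcript was higher in the libraries labelled *Per2*-/- than in WT libraries, at 1.87 to 2.00 against 0.817 to 0.957 FPKM on day 0. That goes against the label if the deletion removes the transcript, which was not tested. By western blotting, the authors reported that *Per1*-/- MEFs had lost PER1 protein and *Per2*-/- MEFs PER2 protein. The libraries labelled *Per2*-/- are named by their label throughout.

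Mitosis begins when cyclin B and CDK1 phosphorylate their targets, with Aurora A and Polo-like kinase 1 acting at the centrosomes and kinetochores. Condensins and topoisomerase II shape the chromosomes, the spindle checkpoint holds back anaphase until every kinetochore is attached, and the anaphase-promoting complex (APC/C) with its activator CDC20 then marks securin and cyclin B for destruction. Transcripts of most of these factors are made late in the cell cycle. In quiescent cells the DREAM complex represses their genes, and in cycling cells B-MYB and FOXM1 activate them, mostly through CHR letters near the start of transcription. CCAAT letters often stand in the same promoters. Fibroblasts in serum divide, and neurons do not.

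To show what the promoters of these genes share, the 300 bases around each start in RefSeq (assembly GRCm38.p6, 250 bases before and 50 after) were searched for the CHR letters TTTGAA or TTCGAA and for CCAAT, both on either strand. TTCGAA reads the same on both strands, and CCAAT can share a T with TTTGAA where the motifs abut. Of the 42 genes, 36 were matched by symbol, with 39 windows. *Smc4*, *Ccna2*, *Cdc25c*, *Tpx2*, *Kif20a*, and *Foxm1* were not matched, and some genes have more than 1 start. CHR letters stood in 31 of 39 windows (79.5%), against 19.2% of all 32851 windows of this length. CCAAT letters stood in 31 of 39 windows (79.5%), against 37.4%, and both stood in 28 of 39 (71.8%), against 7.52%. Within 50 bases of the start, a distance chosen after the positions were seen, CHR letters stood in 27 of 39 windows (69.2%), against 5.31% of all windows. A match is a description of the letters and not evidence of binding.

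**Figure D1:**
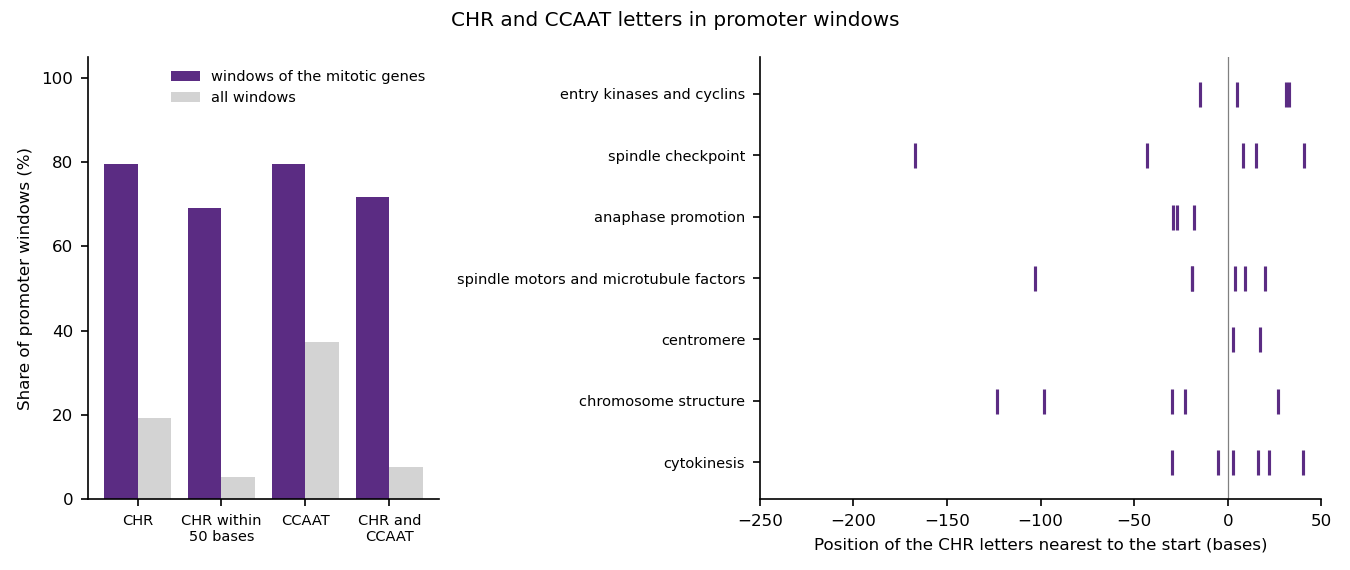
Letters in the promoter windows of the mitosis genes. The left panel plots the share of windows (percent) with CHR letters, CCAAT letters, or both, for the 39 windows of the mitosis genes and for all 32851 windows, and the right panel plots the position of the CHR letters nearest to the start (bases, negative before the start) by role. CHR letters stood in 79.5% of the windows of mitosis genes and 19.2% of all windows, mostly close to the start.

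The 250 bases before the start are shown for 6 genes, 5′ to 3′ on the coding strand, with CHR and CCAAT letters on either strand in capitals. *Anln*, *Aurka*, *Birc5*, and *Prc1* are shown because they fell by day 2 in every genotype, *Nusap1* because its change by day 2, averaged over the 3 genotypes, was nearest to 0, and *Cdc20*, chosen after its values were seen, because it carries both motifs in the usual arrangement.
*Cdc20* (chr4:118437344-118437593, minus strand): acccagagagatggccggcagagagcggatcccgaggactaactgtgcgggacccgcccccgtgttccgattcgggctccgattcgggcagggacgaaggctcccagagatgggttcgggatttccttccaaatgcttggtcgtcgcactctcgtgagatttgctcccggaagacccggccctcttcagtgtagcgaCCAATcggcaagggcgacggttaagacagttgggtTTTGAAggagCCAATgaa
*Prc1* (chr7:80294226-80294475, plus strand): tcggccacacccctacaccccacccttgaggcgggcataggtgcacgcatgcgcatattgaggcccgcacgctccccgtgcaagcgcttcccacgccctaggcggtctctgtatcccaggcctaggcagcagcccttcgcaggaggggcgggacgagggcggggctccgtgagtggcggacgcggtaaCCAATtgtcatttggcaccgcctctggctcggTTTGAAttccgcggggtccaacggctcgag
*Aurka* (chr2:172370571-172370820, minus strand): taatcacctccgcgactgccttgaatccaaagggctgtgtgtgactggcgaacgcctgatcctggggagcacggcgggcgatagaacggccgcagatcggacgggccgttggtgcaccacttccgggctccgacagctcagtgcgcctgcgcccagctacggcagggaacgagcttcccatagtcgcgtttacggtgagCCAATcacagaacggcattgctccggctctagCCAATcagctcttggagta
*Birc5* (chr11:117848987-117849236, plus strand): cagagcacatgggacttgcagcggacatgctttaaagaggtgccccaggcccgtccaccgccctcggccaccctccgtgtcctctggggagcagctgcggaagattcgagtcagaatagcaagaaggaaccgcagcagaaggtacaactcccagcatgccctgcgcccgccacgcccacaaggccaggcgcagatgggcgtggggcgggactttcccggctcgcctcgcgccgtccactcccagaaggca
*Anln* (chr9:22389207-22389456, minus strand): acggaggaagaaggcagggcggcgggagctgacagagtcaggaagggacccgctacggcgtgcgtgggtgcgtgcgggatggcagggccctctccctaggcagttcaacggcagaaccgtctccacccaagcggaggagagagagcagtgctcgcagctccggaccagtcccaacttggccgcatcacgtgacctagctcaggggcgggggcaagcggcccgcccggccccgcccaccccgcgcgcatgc
*Nusap1* (chr2:119618048-119618297, plus strand): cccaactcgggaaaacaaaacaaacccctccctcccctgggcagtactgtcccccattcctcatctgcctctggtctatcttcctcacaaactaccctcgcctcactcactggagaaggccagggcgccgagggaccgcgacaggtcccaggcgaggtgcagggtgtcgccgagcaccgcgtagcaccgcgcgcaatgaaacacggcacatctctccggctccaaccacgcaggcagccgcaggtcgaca
Counting back from the start with the last base before it as -1, CHR letters stood at -18 in *Cdc20* and at -30 in this window of *Prc1*, with CCAAT at -53 and -8 in *Cdc20* and at -62 in *Prc1*. *Aurka* held CCAAT at -51 and -19 and its CHR letters 33 bases after the start, outside the bases shown. *Anln* held no CCAAT in its window, and its CHR letters stood 22 and 29 bases after the start. Neither motif was found in the windows of *Birc5* and *Nusap1*. Windows with no match thus stood both among genes that fell by day 2 in every genotype and at *Nusap1*.

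The mitosis genes fell over the 4 days in all 3 genotypes. Values for the 3 genotypes are given in the order WT, *Per1*-/-, and labelled *Per2*-/- cells. A gene was called when limma gave a Benjamini-Hochberg adjusted p of at most 0.05 over all 14932 genes and its log2 change was 0.58 or more in size. By day 4, 38, 41, and 38 of 42 mitosis genes were lower than on day 0 in WT, *Per1*-/-, and labelled *Per2*-/- cells, against 20.9, 20.4, and 18.8% of all tested genes called lower in these comparisons. The median log2 change of the 42 genes was -1.28, -1.41, and -1.15, against -0.02 over all tested genes in WT cells and values nearer 0 in the others. *Pttg1* was the member nearest to 0, and its change was above 0 in WT and labelled *Per2*-/- cells with FPKM rescaled to a common sum. In cells sampled in bulk, fewer dividing cells and less of these transcripts in each cell cannot be told apart. No mitosis gene was called higher in any of the 9 comparisons of days.

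By day 2 the fall was partial in the values as deposited. It passed the test for 8, 27, and 7 of 42 mitosis genes in WT, *Per1*-/-, and labelled *Per2*-/- cells, against 19.7, 18.8, and 16.8% of all tested genes called lower, and so for a share close to that background in WT and labelled *Per2*-/- cells. The median log2 change of the members was -0.43, -0.67, and -0.35, against -0.01 over all genes in each genotype, and 38, 42, and 39 of 42 had a change below 0 as deposited. From day 2 to day 4, 30, 12, and 28 of 42 were called lower, against 1.59, 1.06, and 1.74% of all tested genes, and the median log2 change of the members was -0.91, -0.74, and -0.82. All 42 had a change below 0 in this interval in each genotype. Of the 237 genes that fell in the second interval in WT cells, 30 were mitosis genes on the list. The counts depended on single libraries. Leaving out WT day 2 replicate 1, 2, or 3 left 2, 18, or 16 members called lower from day 2 to day 4, and leaving out WT day 4 replicate 1, 2, or 3 left 14, 13, or 9, with medians of the change between -0.98 and -0.83. In labelled *Per2*-/- cells, 4 were left without day 2 replicate 1 or 3, 18 without day 4 replicate 1, and 5 without day 4 replicate 2 or 3, with medians of -0.95 to -0.65. By day 2, 5 members were left in WT cells without day 0 replicate 1 or day 2 replicate 3. In labelled *Per2*-/- cells, the count by day 2 was 4 without day 0 replicate 1, 2 without day 0 replicate 3, 12 without day 2 replicate 1, and 1 without day 2 replicate 2.

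**Figure D2:**
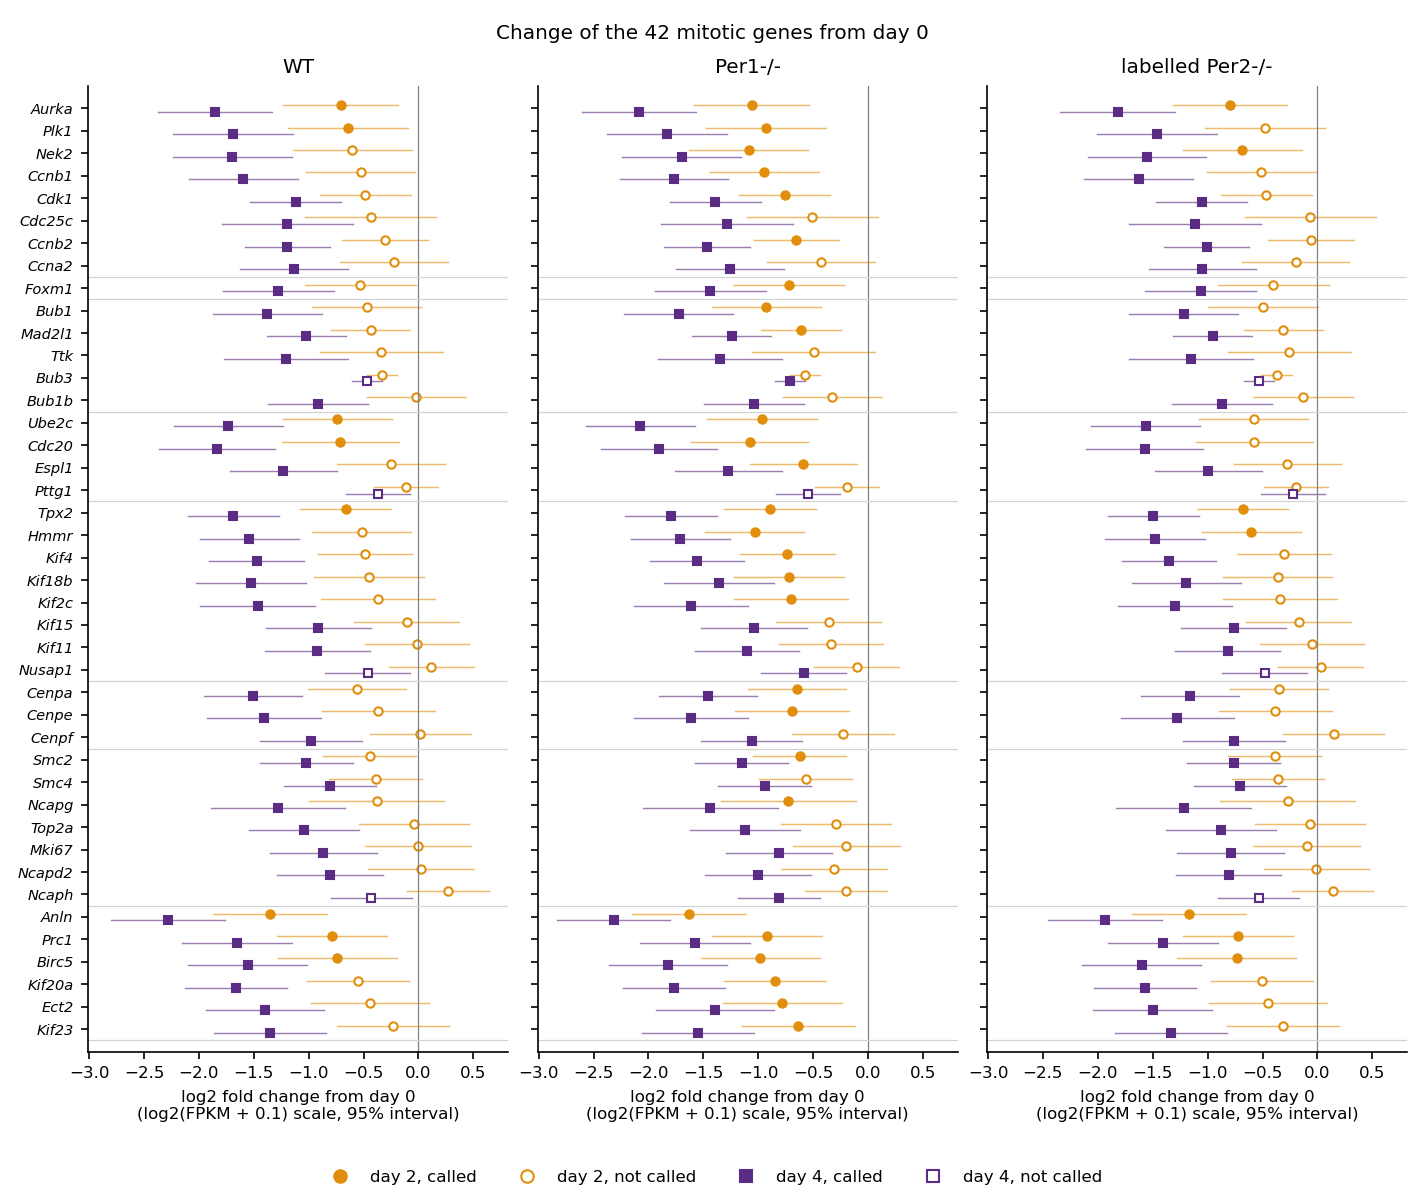
Change of each of the 42 mitosis genes from day 0, by role. Each panel is a genotype, and the x axis is the log2 fold change of FPKM + 0.1 against day 0. Circles mark day 2 and squares day 4, both filled where the gene was called, and bars are 95% intervals from limma. Day 4 points lie to the left of 0 for all 42 genes in each panel (*Pttg1* lay to the right with FPKM rescaled to a common sum in WT and labelled *Per2*-/- cells), with 38, 41, and 38 called, and day 2 points spread from about 0 to the value of *Anln*.

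In *Per1*-/- cells the calls were divided differently between the intervals, with 27 by day 2 and 12 from day 2 to day 4. These counts rested on single libraries. The *Per1*-/- day 0 replicate 2 stood above the others for nearly all members, with a mean log2 level of 4.14 over the 42 genes against 3.23 and 3.33 in the other two, and the *Per1*-/- day 2 libraries ranged from 2.56 to 3.24. Without day 0 replicate 2, 10 members were called by day 2 instead of 27, and the median change was -0.38 instead of -0.67. Without day 2 replicate 1, the count was 15. From day 2 to day 4, the count was 29 without day 0 replicate 2, 22, 0, and 2 without day 2 replicates 1, 2, and 3, and 2, 7, and 1 without day 4 replicates 1, 2, and 3, with medians of -0.93 to -0.55. The same replicate numbers deviated together between days in *Per1*-/- cells, and between days 2 and 4 in WT cells. From day 2 to day 4 in *Per1*-/- cells, a fit with the replicate number as a block called 37 members lower instead of 12.

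**Figure D3:**
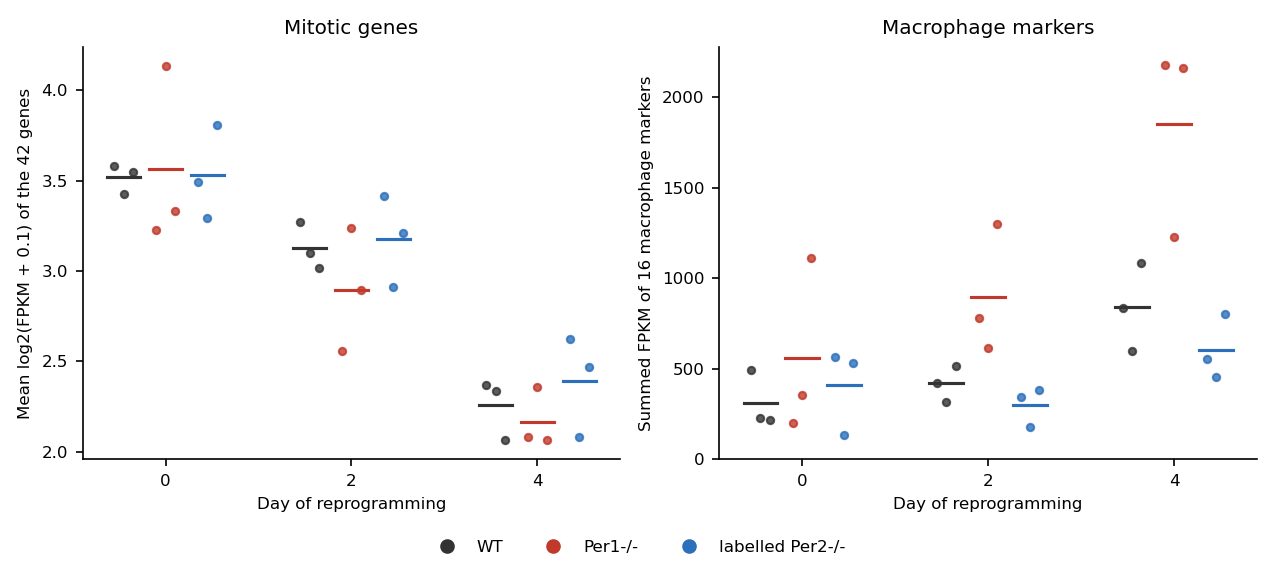
Level of the mitosis genes and of macrophage markers in each of the 27 libraries. The left panel plots the mean of log2(FPKM + 0.1) over the 42 mitosis genes for the 3 libraries of each genotype and day. The right panel plots the summed FPKM of 16 macrophage markers in the same libraries. The mitosis genes lay at 3.43 to 3.58 on day 0 and at 2.06 to 2.37 on day 4 in WT libraries, and the *Per1*-/- day 0 libraries had 1 high value of 4.14.

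The 6 cytokinesis genes held the largest early change. Counts by role, here and below, stand beside 19.7, 18.8, and 16.8% of all tested genes called lower by day 2. By day 4 these shares were 20.9, 20.4, and 18.8% in WT, *Per1*-/-, and labelled *Per2*-/- cells. With FPKM rescaled to a common sum, *Anln* alone of the 42 genes was called lower by day 2 in WT and labelled *Per2*-/- cells. By day 2, 3, 6, and 3 of the 6 had fallen in WT, *Per1*-/-, and labelled *Per2*-/- cells, and by day 4 all 6 had fallen in each genotype, with median log2 changes of -1.61, -1.67, and -1.53. *Anln* encodes anillin, the scaffold of the contractile ring. *Anln* stood at 22.8, 20.0, and 22.7 FPKM in the WT libraries on day 0, at 10.3, 8.64, and 6.82 on day 2, and at 4.75, 4.57, and 3.93 on day 4. *Anln* levels in *Per1*-/- libraries were 15.5, 32.5, and 17.8 on day 0, 4.78, 9.09, and 6.70 on day 2, and 3.75, 4.80, and 3.8 FPKM on day 4. *Anln* levels in the libraries labelled *Per2*-/- were 22.8, 17.6, and 24.6, then 11.7, 7.15, and 10.1, and then 6.55, 4.60, and 5.67 FPKM. For *Anln*, every day 2 library of each genotype lay below every day 0 library, and day 4 lay below day 0 in all 3 genotypes. *Anln* thus had a log2 change from day 0 to day 2 of -1.35, -1.63, and -1.17 in WT, *Per1*-/-, and labelled *Per2*-/- cells (adjusted p = 8.85e-05, 1.06e-05, and 0.00044), and from day 0 to day 4 of -2.28, -2.32, and -1.93 (adjusted p = 1.11e-07, 9.95e-08, and 1.24e-06). Its level in WT cells on day 2 was 60.8% lower than on day 0 on this scale. *Kif20a* and *Kif23* encode kinesins of the central spindle. *Kif20a* stood at 18.9, 17.5, and 19.9 FPKM in the WT libraries on day 0, at 14.3, 12.4, and 11.6 on day 2, and at 6.51, 5.94, and 5.15 on day 4. *Kif20a* levels in *Per1*-/- libraries were 16.8, 28.5, and 16.3 on day 0, 8.53, 13.5, and 11.5 on day 2, and 5.17, 7.13, and 5.22 FPKM on day 4. *Kif20a* levels in the libraries labelled *Per2*-/- were 17.0, 17.1, and 22.4, then 16.6, 10.3, and 13.2, and then 7.35, 4.55, and 7.21 FPKM. For *Kif20a*, every day 2 library of each genotype lay below every day 0 library, and day 4 lay below day 0 in all 3 genotypes. *Kif23*, the member of this role that changed least by day 2, stood at 6.76, 6.02, and 7.19 FPKM in the WT libraries on day 0, at 5.74, 5.66, and 5.51 on day 2, and at 2.49, 3.01, and 2.19 on day 4. *Kif23* levels in *Per1*-/- libraries were 5.15, 11.7, and 5.92 on day 0, 3.32, 5.88, and 4.77 on day 2, and 2.05, 2.72, and 2.34 FPKM on day 4. *Kif23* levels in the libraries labelled *Per2*-/- were 6.86, 5.61, and 9.49, then 6.51, 4.95, and 5.86, and then 3.03, 2.25, and 3.14 FPKM. For *Kif23*, all day 2 libraries lay below all day 0 libraries in the WT series, and the 2 days overlapped in the others, and day 4 lay below day 0 in all 3 genotypes. Their log2 changes from day 0 to day 2 were -0.55, -0.85, and -0.50 for *Kif20a* (adjusted p = 0.0384, 0.00273, and 0.0618) and -0.23, -0.63, and -0.31 for *Kif23* (adjusted p = 0.427, 0.0313, and 0.291). By day 4 the changes were -1.66, -1.76, and -1.57 for *Kif20a* and -1.35, -1.55, and -1.33 for *Kif23*, and both were called in all 3 genotypes. *Prc1*, which bundles the microtubules of the midzone, and *Birc5*, a subunit of the chromosomal passenger complex, were also called by day 2 in all 3 genotypes, with changes of -0.79, -0.92, and -0.73 for *Prc1* and -0.74, -0.98, and -0.73 for *Birc5*. *Ect2*, the exchange factor that activates RhoA at the furrow, changed by -0.44, -0.78, and -0.45 by day 2 and by -1.40, -1.39, and -1.50 by day 4.

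Of the 8 kinases and cyclins of mitotic entry, 2, 6, and 2 had fallen by day 2 in WT, *Per1*-/-, and labelled *Per2*-/- cells. Among all tested genes the share called lower was then 19.7, 18.8, and 16.8%. By day 4 all 8 had fallen in each genotype. *Aurka* encodes Aurora A, the centrosomal kinase. *Aurka* stood at 17.0, 15.9, and 17.8 FPKM in the WT libraries on day 0, at 11.9, 10.1, and 9.11 on day 2, and at 5.92, 4.53, and 3.65 on day 4. *Aurka* levels in *Per1*-/- libraries were 12.6, 28.3, and 14.7 on day 0, 5.95, 12, and 7.91 on day 2, and 3.76, 4.48, and 3.85 FPKM on day 4. *Aurka* levels in the libraries labelled *Per2*-/- were 17.0, 15.8, and 20.4, then 11.7, 8.47, and 10.4, and then 5.92, 4.58, and 4.40 FPKM. For *Aurka*, every day 2 library of each genotype lay below every day 0 library, and day 4 lay below day 0 in all 3 genotypes. *Aurka* thus had a log2 change from day 0 to day 2 of -0.71, -1.06, and -0.80 in WT, *Per1*-/-, and labelled *Per2*-/- cells (adjusted p = 0.019, 0.00108, and 0.0102), and from day 0 to day 4 of -1.85, -2.09, and -1.82 (adjusted p = 2.01e-06, 4.43e-07, and 2.90e-06). *Ccna2* encodes cyclin A2, which acts from S phase to early mitosis. *Ccna2* stood at 21.4, 18, and 19.4 FPKM in the WT libraries on day 0, at 19.2, 15.6, and 15.7 on day 2, and at 9.82, 9.41, and 7.49 on day 4. *Ccna2* levels in *Per1*-/- libraries were 15, 30.9, and 16.7 on day 0, 10.7, 19.7, and 14.8 on day 2, and 7.65, 9.39, and 7.63 FPKM on day 4. *Ccna2* levels in the libraries labelled *Per2*-/- were 20.5, 15, and 24.7, then 19.8, 14.8, and 17.0, and then 11.1, 8.06, and 9.45 FPKM. For *Ccna2*, day 2 and day 0 overlapped in every genotype, and day 4 lay below day 0 in all 3 genotypes. *Ccna2* changed from day 0 by -0.22, -0.43, and -0.20 on the log2 scale by day 2 (adjusted p = 0.432, 0.121, and 0.493) and by -1.14, -1.26, and -1.05 by day 4 (adjusted p = 0.000282, 9.77e-05, and 0.000683). *Ccnb2* encodes a B-type cyclin and had the highest mean level of these genes. *Ccnb2* stood at 28.7, 26.4, and 29.5 FPKM in the WT libraries on day 0, at 24.7, 22.3, and 21.5 on day 2, and at 13.4, 12.6, and 10.9 on day 4. *Ccnb2* levels in *Per1*-/- libraries were 24.5, 42, and 27.2 on day 0, 15, 24.3, and 19.7 on day 2, and 12.1, 11.6, and 9.20 FPKM on day 4. *Ccnb2* levels in the libraries labelled *Per2*-/- were 25.1, 22.5, and 30.3, then 30.3, 20.5, and 24.5, and then 14.4, 11.7, and 12.2 FPKM. For *Ccnb2*, all day 2 libraries lay below all day 0 libraries in the WT and *Per1*-/- series, and the 2 days overlapped in the other, and day 4 lay below day 0 in all 3 genotypes. *Ccnb2* changed from day 0 by -0.30, -0.65, and -0.06 on the log2 scale by day 2 (adjusted p = 0.169, 0.00518, and 0.818) and by -1.19, -1.47, and -1.01 by day 4 (adjusted p = 1.26e-05, 9.80e-07, and 9.62e-05). *Plk1* and *Nek2*, which encode the kinases of centrosome maturation and separation, changed by -0.64, -0.93, and -0.48 for *Plk1* and -0.60, -1.09, and -0.68 for *Nek2* by day 2. By day 4 *Plk1* had changed by -1.69, -1.83, and -1.46 and *Nek2* by -1.69, -1.70, and -1.55. *Cdk1* and its partner *Ccnb1* changed by -0.48, -0.76, and -0.47 for *Cdk1* and -0.53, -0.94, and -0.51 for *Ccnb1* by day 2. By day 4 *Cdk1* had changed by -1.12, -1.39, and -1.06 and *Ccnb1* by -1.59, -1.77, and -1.63. *Cdc25c*, the phosphatase that activates CDK1, changed by -0.43, -0.51, and -0.07 by day 2, which was not called in any genotype, and by -1.19, -1.28, and -1.11 by day 4.

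*Foxm1*, the only transcription factor on the list, activates many of the other members in G2. *Foxm1* stood at 11.8, 12.3, and 13.7 FPKM in the WT libraries on day 0, at 10.1, 8.04, and 8.0 on day 2, and at 5.73, 5.04, and 4.68 on day 4. *Foxm1* levels in *Per1*-/- libraries were 9.48, 21.5, and 11.0 on day 0, 5.81, 9.93, and 8.56 on day 2, and 4.51, 5.51, and 4.41 FPKM on day 4. *Foxm1* levels in the libraries labelled *Per2*-/- were 12.8, 10.1, and 15.7, then 11.3, 7.83, and 9.93, and then 7.20, 4.86, and 6.18 FPKM. For *Foxm1*, all day 2 libraries lay below all day 0 libraries in the WT series, and the 2 days overlapped in the others, and day 4 lay below day 0 in all 3 genotypes. *Foxm1* thus had a log2 change from day 0 to day 2 of -0.53, -0.72, and -0.40 in WT, *Per1*-/-, and labelled *Per2*-/- cells (adjusted p = 0.0656, 0.0145, and 0.17), and from day 0 to day 4 of -1.28, -1.43, and -1.06 (adjusted p = 0.000117, 3.26e-05, and 0.000793). Its fall by day 2 was called in *Per1*-/- cells, and its fall by day 4 was called in all 3 genotypes.

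Among the 4 genes of anaphase promotion, *Cdc20* and *Ube2c* fell and *Pttg1* was not called in any comparison. By day 2, 2, 3, and 0 of the 4 had fallen in WT, *Per1*-/-, and labelled *Per2*-/- cells, and by day 4 it was 3, 3, and 3. *Cdc20* encodes the activator of the APC/C at anaphase and was the most abundant transcript of the 42 per length. *Cdc20* stood at 49.1, 48.8, and 44.8 FPKM in the WT libraries on day 0, at 35.8, 25.5, and 26.7 on day 2, and at 14.5, 14.8, and 10.9 on day 4. *Cdc20* levels in *Per1*-/- libraries were 42.1, 74.5, and 36.9 on day 0, 16.2, 32.2, and 23.4 on day 2, and 11.3, 14.7, and 13.2 FPKM on day 4. *Cdc20* levels in the libraries labelled *Per2*-/- were 46.3, 38.3, and 56.2, then 42.4, 23.0, and 30.8, and then 16.6, 13.8, and 16.3 FPKM. For *Cdc20*, all day 2 libraries lay below all day 0 libraries in the WT and *Per1*-/- series, and the 2 days overlapped in the other, and day 4 lay below day 0 in all 3 genotypes. *Cdc20* changed from day 0 by -0.71, -1.08, and -0.57 on the log2 scale by day 2 (adjusted p = 0.0204, 0.00109, and 0.0614) and by -1.83, -1.90, and -1.57 by day 4 (adjusted p = 2.85e-06, 1.86e-06, and 2.09e-05). *Ube2c* encodes the ubiquitin-conjugating enzyme of the APC/C. *Ube2c* stood at 34.5, 25.7, and 30.6 FPKM in the WT libraries on day 0, at 19.6, 17.0, and 17.4 on day 2, and at 9.51, 10.5, and 7.27 on day 4. *Ube2c* levels in *Per1*-/- libraries were 20.5, 48.4, and 27.6 on day 0, 11.7, 19.2, and 16.3 on day 2, and 7.91, 6.67, and 6.77 FPKM on day 4. *Ube2c* levels in the libraries labelled *Per2*-/- were 29.8, 24.2, and 33.7, then 21.9, 16.6, and 19.9, and then 12.1, 7.85, and 9.65 FPKM. For *Ube2c*, every day 2 library of each genotype lay below every day 0 library, and day 4 lay below day 0 in all 3 genotypes. *Ube2c* changed from day 0 by -0.74, -0.97, and -0.58 on the log2 scale by day 2 (adjusted p = 0.0112, 0.00162, and 0.0449) and by -1.73, -2.07, and -1.56 by day 4 (adjusted p = 2.60e-06, 2.58e-07, and 1.08e-05). The fall of *Ube2c* by day 2 in labelled *Per2*-/- cells lay at the limit of fold change and was not called. *Pttg1* encodes securin, which inhibits separase. *Pttg1* stood at 7.96, 7.42, and 5.86 FPKM in the WT libraries on day 0, at 6.49, 6.71, and 6.28 on day 2, and at 5.51, 6.02, and 4.81 on day 4. *Pttg1* levels in *Per1*-/- libraries were 6.20, 7.36, and 8.53 on day 0, 6.0, 6.48, and 6.69 on day 2, and 6.29, 3.89, and 4.98 FPKM on day 4. *Pttg1* levels in the libraries labelled *Per2*-/- were 6.08, 6.82, and 6.97, then 5.58, 5.62, and 6.13, and then 5.94, 5.51, and 5.55 FPKM. For *Pttg1*, day 2 and day 0 overlapped in every genotype, and day 4 lay below day 0 in the labelled *Per2*-/- libraries. *Pttg1* changed from day 0 by -0.11, -0.19, and -0.19 on the log2 scale by day 2 (adjusted p = 0.506, 0.244, and 0.252) and by -0.37, -0.55, and -0.22 by day 4 (adjusted p = 0.0275, 0.00186, and 0.181). *Espl1*, which encodes separase itself, changed by -0.25, -0.59, and -0.27 by day 2 and by -1.23, -1.27, and -0.99 by day 4. The difference between *Pttg1* and the enzyme that it inhibits was not tested.

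**Figure D4:**
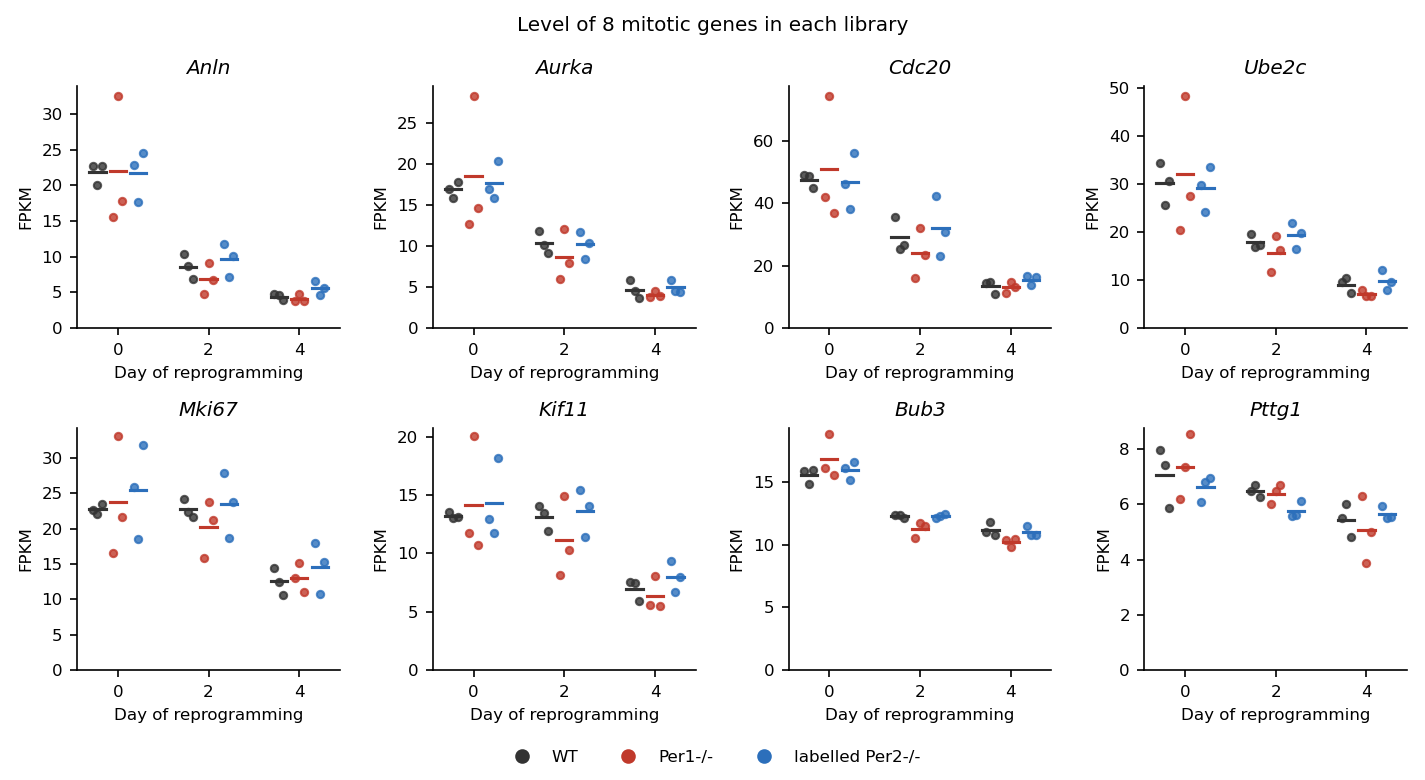
FPKM of 8 mitosis genes in each of the 27 libraries. Each panel is a gene, the y axis is FPKM from 0, points are the 3 libraries of a genotype and day, and bars are group means. *Anln*, *Aurka*, *Cdc20*, and *Ube2c* were lower on day 2 than on day 0 in the group means, *Mki67* and *Kif11* had WT means of 22.7 and 13.2 FPKM on day 0 and 22.7 and 13.1 on day 2, and *Pttg1* and *Bub3* had WT day 4 means of 5.45 and 11.2 FPKM against 7.08 and 15.5 on day 0.

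The spindle motors and microtubule factors held both *Tpx2*, called by day 2 in every genotype, and *Nusap1*, the member whose change by day 2, averaged over the 3 genotypes, was nearest to 0. By day 2, 1, 5, and 2 of the 8 had fallen in WT, *Per1*-/-, and labelled *Per2*-/- cells, and by day 4 it was 7, 8, and 7. *Tpx2* encodes the microtubule nucleator that activates Aurora A. *Tpx2* stood at 27.7, 24.9, and 29.0 FPKM in the WT libraries on day 0, at 19.1, 16, and 16.4 on day 2, and at 8.75, 8.66, and 7.73 on day 4. *Tpx2* levels in *Per1*-/- libraries were 22.2, 40.7, and 24.9 on day 0, 11.8, 19.2, and 15.4 on day 2, and 7.53, 9.10, and 7.64 FPKM on day 4. *Tpx2* levels in the libraries labelled *Per2*-/- were 26.7, 21.9, and 32.4, then 19.5, 13.2, and 17.7, and then 10.5, 8.08, and 9.81 FPKM. For *Tpx2*, every day 2 library of each genotype lay below every day 0 library, and day 4 lay below day 0 in all 3 genotypes. *Tpx2* changed from day 0 by -0.66, -0.89, and -0.68 on the log2 scale by day 2 (adjusted p = 0.00699, 0.000659, and 0.00639) and by -1.69, -1.79, and -1.50 by day 4 (adjusted p = 3.30e-07, 1.59e-07, and 1.94e-06). *Kif11* encodes the kinesin that pushes the spindle poles apart. *Kif11* stood at 13.5, 13.0, and 13.1 FPKM in the WT libraries on day 0, at 14.1, 13.4, and 11.9 on day 2, and at 7.52, 7.49, and 5.93 on day 4. *Kif11* levels in *Per1*-/- libraries were 11.7, 20.0, and 10.7 on day 0, 8.14, 14.9, and 10.3 on day 2, and 5.56, 8.02, and 5.53 FPKM on day 4. *Kif11* levels in the libraries labelled *Per2*-/- were 13.0, 11.7, and 18.2, then 15.4, 11.4, and 14.1, and then 9.36, 6.66, and 7.93 FPKM. For *Kif11*, day 2 and day 0 overlapped in every genotype, and day 4 lay below day 0 in all 3 genotypes. Its log2 change by day 2 was -0.01 ± 0.23 (SE, n = 3 and 3 libraries) in WT cells, with an adjusted p of 0.967 from limma, and that by day 4 was -0.92, -1.10, and -0.82 in the 3 genotypes (adjusted p = 0.00144, 0.000269, and 0.00399). *Nusap1* encodes a protein that bundles spindle microtubules. *Nusap1* stood at 6.27, 5.92, and 5.65 FPKM in the WT libraries on day 0, at 6.52, 6.47, and 6.37 on day 2, and at 4.54, 4.86, and 3.57 on day 4. *Nusap1* levels in *Per1*-/- libraries were 5.27, 7.61, and 5.57 on day 0, 5.14, 6.82, and 5.14 on day 2, and 3.51, 5.12, and 3.60 FPKM on day 4. *Nusap1* levels in the libraries labelled *Per2*-/- were 7.13, 5.01, and 7.84, then 7.49, 6.08, and 6.55, and then 5.41, 3.67, and 5.11 FPKM. For *Nusap1*, the WT day 2 libraries all lay above those of day 0, and the days overlapped in the rest, and day 4 lay below day 0 in the WT and *Per1*-/- libraries. *Nusap1* changed from day 0 by 0.12, -0.10, and 0.03 on the log2 scale by day 2 (adjusted p = 0.604, 0.653, and 0.905) and by -0.46, -0.58, and -0.48 by day 4 (adjusted p = 0.0349, 0.00935, and 0.0301). It was called lower by day 4 in *Per1*-/- cells alone, where its change reached the limit. *Hmmr* fell by day 2 in *Per1*-/- and labelled *Per2*-/- cells, with changes of -0.52, -1.03, and -0.60 in the 3 genotypes. It encodes a microtubule-binding protein that marks the spindle. The kinesin genes *Kif18b*, *Kif2c*, and *Kif4* were called by day 2 in *Per1*-/- cells, with changes of -0.45, -0.72, and -0.36 for *Kif18b*, -0.37, -0.70, and -0.34 for *Kif2c*, and -0.49, -0.73, and -0.31 for *Kif4*. *Kif15*, which supports KIF11, changed by -0.11, -0.36, and -0.17 by day 2 and by -0.91, -1.04, and -0.76 by day 4.

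Genes of chromosome structure were called by day 4 and hardly by day 2. By day 2, 0, 2, and 0 of the 7 had fallen in WT, *Per1*-/-, and labelled *Per2*-/- cells, and by day 4 it was 6, 7, and 6, with median log2 changes of -0.04, -0.31, and -0.10 by day 2 and -0.87, -1.0, and -0.79 by day 4. *Mki67* encodes Ki-67, the coat of mitotic chromosomes and the usual marker of dividing cells. *Mki67* stood at 22.7, 22.1, and 23.5 FPKM in the WT libraries on day 0, at 24.2, 22.4, and 21.6 on day 2, and at 14.5, 12.5, and 10.6 on day 4. *Mki67* levels in *Per1*-/- libraries were 16.6, 33.1, and 21.7 on day 0, 15.8, 23.7, and 21.2 on day 2, and 13.1, 15.1, and 11.1 FPKM on day 4. *Mki67* levels in the libraries labelled *Per2*-/- were 25.8, 18.6, and 31.8, then 27.9, 18.7, and 23.8, and then 18, 10.7, and 15.2 FPKM. For *Mki67*, day 2 and day 0 overlapped in every genotype, and day 4 lay below day 0 in all 3 genotypes. Its WT mean was 22.7 ± 0.737 FPKM (SD, n = 3) on day 0, 22.7 ± 1.33 on day 2, and 12.5 ± 1.93 on day 4. Its log2 change by day 4 was -0.87, -0.81, and -0.79 in the 3 genotypes (adjusted p = 0.00284, 0.00476, and 0.00607). *Ncaph* encodes the kleisin subunit of condensin I. *Ncaph* stood at 7.57, 8.24, and 7.84 FPKM in the WT libraries on day 0, at 9.69, 9.12, and 9.76 on day 2, and at 6.23, 6.10, and 5.21 on day 4. *Ncaph* levels in *Per1*-/- libraries were 7.49, 11.3, and 8.79 on day 0, 6.70, 9.52, and 7.62 on day 2, and 4.91, 5.35, and 5.10 FPKM on day 4. *Ncaph* levels in the libraries labelled *Per2*-/- were 7.84, 7.48, and 11.0, then 10.3, 7.88, and 10.6, and then 6.65, 4.36, and 7.18 FPKM. For *Ncaph*, the WT day 2 libraries all lay above those of day 0, and the days overlapped in the rest, and day 4 lay below day 0 in all 3 genotypes. *Ncaph* changed from day 0 by 0.27, -0.20, and 0.14 on the log2 scale by day 2 (adjusted p = 0.198, 0.344, and 0.532) and by -0.43, -0.81, and -0.54 by day 4 (adjusted p = 0.0417, 0.0005, and 0.0135). Its fall by day 4 was called in *Per1*-/- cells alone. *Smc2* and *Smc4* encode the ATPases shared by both condensins. *Smc2* stood at 24.8, 20.9, and 22.3 FPKM in the WT libraries on day 0, at 17.4, 17.0, and 15.5 on day 2, and at 10.9, 12.5, and 9.97 on day 4. *Smc2* levels in *Per1*-/- libraries were 17.5, 31.9, and 18.5 on day 0, 12.3, 16.8, and 13.5 on day 2, and 8.5, 12.3, and 8.86 FPKM on day 4. *Smc2* levels in the libraries labelled *Per2*-/- were 20.2, 17.9, and 26.2, then 18, 13.8, and 16.8, and then 15.4, 10.1, and 12.3 FPKM. For *Smc2*, all day 2 libraries lay below all day 0 libraries in the WT and *Per1*-/- series, and the 2 days overlapped in the other, and day 4 lay below day 0 in all 3 genotypes. *Smc4* stood at 28.1, 24.6, and 30.4 FPKM in the WT libraries on day 0, at 23.1, 21.6, and 18.6 on day 2, and at 16.4, 16.7, and 14.1 on day 4. *Smc4* levels in *Per1*-/- libraries were 23.4, 38.6, and 23.1 on day 0, 15.1, 22.4, and 18.7 on day 2, and 13.3, 15.7, and 13.9 FPKM on day 4. *Smc4* levels in the libraries labelled *Per2*-/- were 26.8, 25.5, and 32.7, then 25.4, 15.9, and 26.3, and then 20.3, 14.0, and 17.9 FPKM. For *Smc4*, all day 2 libraries lay below all day 0 libraries in the WT and *Per1*-/- series, and the 2 days overlapped in the other, and day 4 lay below day 0 in all 3 genotypes. Between day 0 and day 2, *Smc2* changed by -0.44, -0.62, and -0.39 and *Smc4* by -0.39, -0.57, and -0.36, and by day 4 both had fallen in all 3 genotypes, with changes of -1.02, -1.15, and -0.76 for *Smc2* and -0.81, -0.94, and -0.71 for *Smc4* on the log2 scale. *Top2a*, the topoisomerase that untangles sister chromatids, changed by -0.04, -0.29, and -0.07 by day 2 and by -1.04, -1.12, and -0.88 by day 4, and the condensin subunits *Ncapd2* and *Ncapg* by -0.81, -1.0, and -0.81 for *Ncapd2* and -1.28, -1.44, and -1.22 for *Ncapg* by day 4.

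At the kinetochore, 0, 2, and 0 of the 5 checkpoint genes had fallen by day 2 in WT, *Per1*-/-, and labelled *Per2*-/- cells, and 4, 5, and 4 by day 4. *Bub1* encodes the kinase that recruits the checkpoint proteins. *Bub1* stood at 10.2, 8.36, and 9.90 FPKM in the WT libraries on day 0, at 7.0, 7.27, and 6.12 on day 2, and at 3.75, 3.67, and 3.33 on day 4. *Bub1* levels in *Per1*-/- libraries were 8.26, 15.1, and 9.01 on day 0, 3.8, 7.78, and 5.36 on day 2, and 2.62, 3.97, and 2.78 FPKM on day 4. *Bub1* levels in the libraries labelled *Per2*-/- were 8.88, 8.38, and 11.0, then 8.16, 5.24, and 6.76, and then 4.81, 3.10, and 4.17 FPKM. For *Bub1*, every day 2 library of each genotype lay below every day 0 library, and day 4 lay below day 0 in all 3 genotypes. *Bub1* changed from day 0 by -0.47, -0.93, and -0.49 on the log2 scale by day 2 (adjusted p = 0.0934, 0.00226, and 0.0851) and by -1.38, -1.73, and -1.22 by day 4 (adjusted p = 4.17e-05, 2.84e-06, and 0.000173). *Bub1b* encodes BUBR1, the inhibitor of CDC20. *Bub1b* stood at 10.7, 9.86, and 12.7 FPKM in the WT libraries on day 0, at 12, 10.2, and 10.5 on day 2, and at 6.11, 6.08, and 5.24 on day 4. *Bub1b* levels in *Per1*-/- libraries were 10.2, 17.0, and 9.68 on day 0, 7.26, 11.7, and 9.95 on day 2, and 5.27, 6.95, and 5.12 FPKM on day 4. *Bub1b* levels in the libraries labelled *Per2*-/- were 9.22, 10.1, and 14.7, then 12.6, 8.44, and 9.85, and then 6.98, 4.88, and 6.49 FPKM. For *Bub1b*, day 2 and day 0 overlapped in every genotype, and day 4 lay below day 0 in all 3 genotypes. *Bub1b* changed from day 0 by -0.02, -0.32, and -0.13 on the log2 scale by day 2 (adjusted p = 0.948, 0.209, and 0.64) and by -0.92, -1.04, and -0.87 by day 4 (adjusted p = 0.00105, 0.000328, and 0.00183). *Bub3* encodes their common partner. *Bub3* stood at 15.9, 14.8, and 15.9 FPKM in the WT libraries on day 0, at 12.4, 12.4, and 12.1 on day 2, and at 11.0, 11.8, and 10.8 on day 4. *Bub3* levels in *Per1*-/- libraries were 16.1, 18.9, and 15.6 on day 0, 10.6, 11.8, and 11.5 on day 2, and 10.4, 9.85, and 10.5 FPKM on day 4. *Bub3* levels in the libraries labelled *Per2*-/- were 16.1, 15.2, and 16.6, then 12.1, 12.3, and 12.4, and then 11.5, 10.8, and 10.8 FPKM. For *Bub3*, every day 2 library of each genotype lay below every day 0 library, and day 4 lay below day 0 in all 3 genotypes. *Bub3* changed from day 0 by -0.33, -0.57, and -0.37 on the log2 scale by day 2 (adjusted p = 0.000181, 3.15e-07, and 6.77e-05) and by -0.47, -0.71, and -0.53 by day 4 (adjusted p = 3.30e-06, 1.39e-08, and 7.90e-07). *Bub3* had the smallest adjusted p of the 42 genes by day 2 in *Per1*-/- and labelled *Per2*-/- cells, and was not called there because its change was under the minimum of 0.58. *Mad2l1* changed by -1.02, -1.24, and -0.95 and *Ttk* by -1.21, -1.35, and -1.15 by day 4.

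Of the 3 centromere genes, 0, 2, and 0 had fallen by day 2 and 3, 3, and 3 by day 4. *Cenpa* encodes the histone H3 variant of centromeres. *Cenpa* stood at 9.25, 8.48, and 8.16 FPKM in the WT libraries on day 0, at 6.23, 6.0, and 5.23 on day 2, and at 2.90, 3.28, and 2.73 on day 4. *Cenpa* levels in *Per1*-/- libraries were 7.20, 13.1, and 6.56 on day 0, 4.51, 6.57, and 5.34 on day 2, and 2.85, 3.26, and 3.00 FPKM on day 4. *Cenpa* levels in the libraries labelled *Per2*-/- were 8.15, 6.39, and 9.64, then 7.83, 5.34, and 5.79, and then 4.17, 2.69, and 3.85 FPKM. For *Cenpa*, all day 2 libraries lay below all day 0 libraries in the WT series, and the 2 days overlapped in the others, and day 4 lay below day 0 in all 3 genotypes. *Cenpa* changed from day 0 by -0.56, -0.65, and -0.35 on the log2 scale by day 2 (adjusted p = 0.0287, 0.0133, and 0.179) and by -1.51, -1.46, and -1.16 by day 4 (adjusted p = 3.70e-06, 5.84e-06, and 9.62e-05). *Cenpe* encodes a kinesin that carries chromosomes to the spindle equator. *Cenpe* stood at 9.17, 8.14, and 9.41 FPKM in the WT libraries on day 0, at 8.23, 6.35, and 6.22 on day 2, and at 3.40, 3.46, and 3.03 on day 4. *Cenpe* levels in *Per1*-/- libraries were 7.63, 15.5, and 8.32 on day 0, 4.46, 7.98, and 6.41 on day 2, and 2.69, 3.98, and 3.02 FPKM on day 4. *Cenpe* levels in the libraries labelled *Per2*-/- were 9.76, 7.71, and 10.7, then 8.06, 5.95, and 7.51, and then 4.89, 2.67, and 4.15 FPKM. For *Cenpe*, day 2 and day 0 overlapped in every genotype, and day 4 lay below day 0 in all 3 genotypes. *Cenpe* changed from day 0 by -0.37, -0.69, and -0.38 on the log2 scale by day 2 (adjusted p = 0.211, 0.0207, and 0.198) and by -1.41, -1.61, and -1.27 by day 4 (adjusted p = 4.96e-05, 1.05e-05, and 0.000161). *Cenpf* encodes a kinetochore protein that gathers in G2. *Cenpf* stood at 3.68, 3.43, and 3.41 FPKM in the WT libraries on day 0, at 3.67, 3.51, and 3.46 on day 2, and at 2.17, 1.72, and 1.39 on day 4. *Cenpf* levels in *Per1*-/- libraries were 2.91, 5.34, and 3.19 on day 0, 2.54, 3.88, and 3.11 on day 2, and 1.54, 2.25, and 1.45 FPKM on day 4. *Cenpf* levels in the libraries labelled *Per2*-/- were 3.36, 2.89, and 4.78, then 4.21, 3.83, and 3.96, and then 2.59, 1.78, and 1.95 FPKM. For *Cenpf*, day 2 and day 0 overlapped in every genotype, and day 4 lay below day 0 in all 3 genotypes. *Cenpf* changed from day 0 by 0.02, -0.23, and 0.15 on the log2 scale by day 2 (adjusted p = 0.956, 0.39, and 0.59) and by -0.98, -1.06, and -0.76 by day 4 (adjusted p = 0.000656, 0.000309, and 0.00557). *Cenpf* was among the genes with the smallest change by day 2 and fell by day 4 in all 3 genotypes.

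Across roles, 5 genes were called lower by day 2 in all 3 genotypes, namely *Anln*, *Prc1*, *Birc5*, *Aurka*, and *Tpx2*. With FPKM rescaled to a common sum or per total fragments, *Anln* was still called in all 3, and the other 4 were not called in WT or labelled *Per2*-/- cells. At the other end, 15 genes were not called by day 2 in any genotype, and 11 of these were called lower by day 4 in all 3, among them *Mki67*, *Top2a*, *Kif11*, *Kif15*, *Ncapd2*, *Cenpf*, and *Bub1b*. The changes of the 3 genotypes share no library. Across the 42 genes, changes by day 2 in WT cells had a Pearson's r of 0.941 with those in *Per1*-/- cells and 0.929 with those in labelled *Per2*-/- cells (Spearman's rho 0.912 and 0.914, n = 42 genes, which are not independent replicates). From day 2 to day 4, r was 0.821 and 0.880, and rho was lower, at 0.673 and 0.756. Within a genotype all 42 points come from the same 6 libraries.

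**Figure D5:**
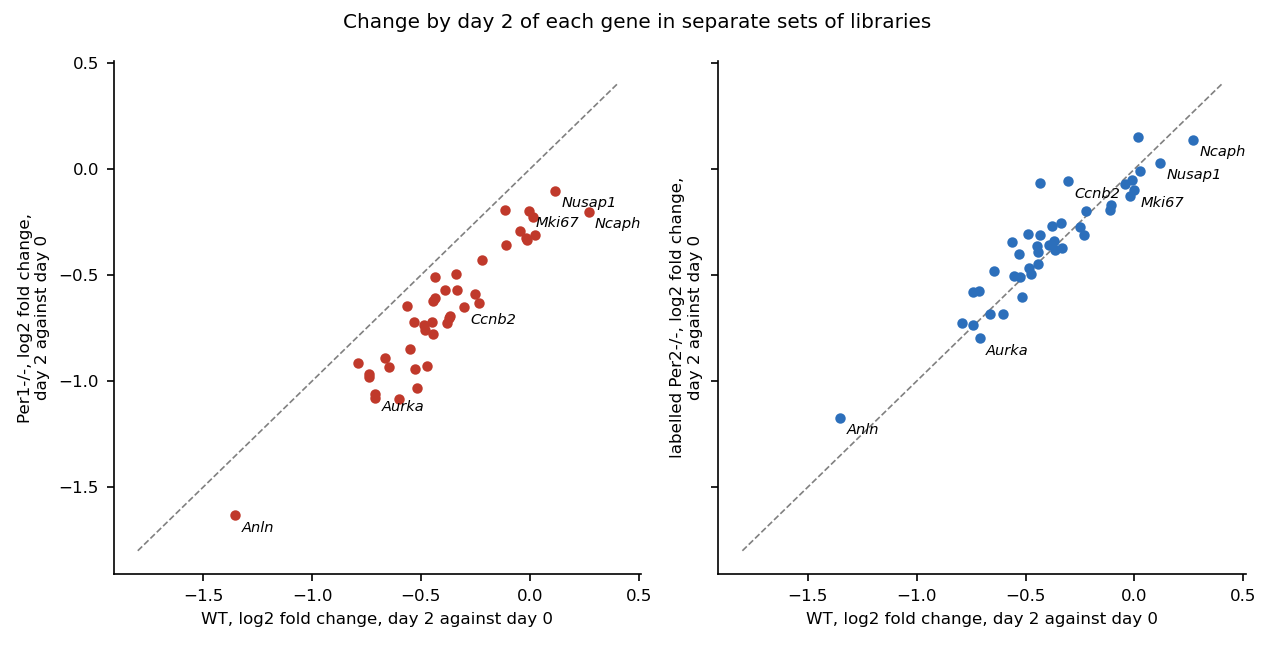
Change of the 42 mitosis genes from day 0 to day 2, WT cells against the other genotypes. Each point is a gene, both axes are log2 fold changes of FPKM + 0.1, and the dashed line marks equal change. In *Per1*-/- cells the points lie below the line, with a median of -0.67 against -0.43 in WT cells. This rested on a single library, and without *Per1*-/- day 0 replicate 2 the median was smaller in size than in WT cells. The difference in change between these genotypes was called for no member. Points of labelled *Per2*-/- cells lie about the line, with a median of -0.35.

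Ratios between members within a library cannot be changed by any scaling of libraries. Those given here, chosen after the values were seen, set members that had fallen more by day 2 over members that had changed less. That they were lower on day 2 than on day 0 followed from this choice. The ratio of *Anln* to *Mki67* FPKM in WT libraries was 0.959 ± 0.0492 (SD, n = 3) on day 0, 0.376 ± 0.0564 on day 2, and 0.355 ± 0.0233 on day 4. In *Per1*-/- libraries it was 0.912 ± 0.0813, 0.334 ± 0.0429, and 0.316 ± 0.0288, and in the libraries labelled *Per2*-/- 0.868 ± 0.0888, 0.409 ± 0.0234, and 0.389 ± 0.0352. *Aurka* to *Mki67* went from 0.743 ± 0.0195 to 0.454 ± 0.0342 and 0.372 ± 0.0337 in WT libraries. The ratio of *Ube2c* to *Top2a* went from 1.20 ± 0.115 to 0.735 ± 0.0574 and 0.736 ± 0.0486, and that of *Cdc20* to *Ncapd2* from 2.96 ± 0.359 to 1.77 ± 0.193 and 1.45 ± 0.183. The ratios are a description of unequal change with no test.

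Whether the members fell by day 2, and by how much, depended on the scaling of the libraries. Sums of FPKM over all genes ranged from 333295 to 374624 on day 0 and from 261289 to 343225 on days 2 and 4. When FPKM was rescaled to a common sum, the median of all genes moved to 0.41, 0.38, and 0.32 by day 2 and to 0.37, 0.26, and 0.25 by day 4 in WT, *Per1*-/-, and labelled *Per2*-/- cells. By day 2, 1, 5, and 1 members were then called lower, and *Ncaph* was called higher in WT cells. With the common sum the median change of the members by day 2 was -0.01, -0.28, and -0.02, and 22, 32, and 23 of 42 had a change below 0. The median change of members less that of all genes was -0.42, -0.66, and -0.35 as deposited and -0.43, -0.66, and -0.34 with the common sum. Rescaling moves all genes of a library by about the same amount. This difference could therefore hardly change, and it does not show that the fall was kept. By day 4 the count with the common sum was 32, 37, and 31 of 42. Among all tested genes in WT cells by day 2, 2944 were lower and 3101 higher as deposited, against 1241 and 5623 with the common sum.

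Whether the fall was steeper in the second interval was tested with the change from day 2 to day 4 less that from day 0 to day 2, a test added after the values were seen. *Ncaph* and *Cenpf* were called in WT cells, with differences of -0.97 ± 0.31 (SE, adjusted p = 0.0179) and -1.01 ± 0.38 (SE, adjusted p = 0.044) on the log2 scale. In labelled *Per2*-/- cells the same 2 genes and *Ccnb2* were called, with -0.81 ± 0.31 (SE, adjusted p = 0.0486), -1.06 ± 0.38 (SE, adjusted p = 0.0388), and -0.90 ± 0.32 (SE, adjusted p = 0.0384). No member was called in *Per1*-/- cells, and 2 members had an unadjusted p under 0.05 there. The shares of all tested genes called in this direction were 15.2, 14.7, and 14.4%, above the members' shares as deposited and without a block. With the replicate block 12, 1, and 10 members were called, and 21, 6, and 16 were called with the common sum. These calls also rested on single libraries. In WT cells none was left without WT day 2 replicate 1 or 3, 7 were called without *Per1*-/- day 0 replicate 2, and 1 was left without WT day 0 replicate 1, 2, or 3, WT day 2 replicate 2, WT day 4 replicate 2 or 3, *Per1*-/- day 2 replicate 3, or labelled *Per2*-/- day 2 replicate 1 or 3. In labelled *Per2*-/- cells 0 were left without day 0 replicate 1 or 2, day 2 replicate 1 or 3, or day 4 replicate 2, and 1 without day 4 replicate 3, and in *Per1*-/- cells 1 was called without day 0 replicate 1 or day 2 replicate 2.

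No difference between genotypes was found for any mitosis gene on any day. Of 42 genes, 0 were called in each of the 9 comparisons by limma on log2 FPKM or with voom weights on fragments, and 0 had an unadjusted p under 0.05. The shares of all tested genes called in either direction on days 0, 2, and 4 were 0.0134, 0.0067, and 0.0268% for *Per1*-/- against WT cells, 0.0201, 0.0737, and 0.556% for *Per1*-/- against labelled *Per2*-/- cells, and 0.0067, 0.0268, and 0.0067% for labelled *Per2*-/- against WT cells. The median log2 difference of members on these days was 0.05, -0.22, and -0.09 for *Per1*-/- against WT cells, 0.04, -0.27, and -0.22 for *Per1*-/- against labelled *Per2*-/- cells, and 0.01, 0.05, and 0.12 for labelled *Per2*-/- against WT cells. On day 2, 42 of 42 members had a lower mean in *Per1*-/- than in WT cells and 41 of 42 than in labelled *Per2*-/- cells. All members of a library share its level, so these counts are a description. The interval of the difference was wide for most members. For *Cdc20* on day 2, *Per1*-/- against WT cells, the difference was -0.33 (95% interval -0.86 to 0.20, adjusted p = 0.999), and for *Mki67* -0.19 (95% interval -0.67 to 0.30, adjusted p = 0.999).

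*Bub3*, whose replicates varied least, was the member whose *Per1*-/- libraries all lay below those of both other genotypes on day 2. On that day 2 of 42 members lay below WT libraries in this way and 1 of 42 below labelled *Per2*-/- libraries. How many of all tested genes did so was not counted. These counts and the separation of *Bub3* are therefore a description and no evidence of a difference between genotypes. The log2 difference of *Bub3* on day 2 was -0.13 (95% interval -0.26 to 0.01, adjusted p = 0.999) against WT and -0.12 (95% interval -0.26 to 0.01, adjusted p = 0.676) against labelled *Per2*-/- cells. On day 4 the *Per1*-/- libraries again all lay below both, with -0.13 (95% interval -0.27 to 0.01, adjusted p = 0.836) and -0.11 (95% interval -0.24 to 0.03, adjusted p = 0.538). The change over days was also compared between genotypes. For the changes from day 0 to days 2 and 4, 0 of 42 members were called in each of 6 comparisons, and 0% of all tested genes were. At an unadjusted p under 0.05 stood *Bub3*, with a difference in change of -0.24 ± 0.09 (SE, unadjusted p = 0.0195) by day 2 and -0.24 ± 0.09 (SE, unadjusted p = 0.0175) by day 4 between *Per1*-/- and WT cells and of -0.20 ± 0.09 (SE, unadjusted p = 0.0451) by day 2 between *Per1*-/- and labelled *Per2*-/- cells, and *Ccnb2*, with -0.60 ± 0.26 (SE, unadjusted p = 0.0356) by day 2 between *Per1*-/- and labelled *Per2*-/- cells. None of these passed the adjustment over all genes in limma, with adjusted p-values of at least 0.987.

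Macrophage markers were present beside these values. All 16 macrophage markers were detected in every library, none at 0, and their summed level was 219 to 492 FPKM in WT, 202 to 1113 in *Per1*-/-, and 134 to 562 in labelled *Per2*-/- libraries on day 0. On day 2 the ranges were 317 to 516, 614 to 1298, and 176 to 382, and on day 4 596 to 1085, 1225 to 2174, and 455 to 799 FPKM. By day 4, 12, 15, and 9 of 16 had risen in WT, *Per1*-/-, and labelled *Per2*-/- cells. None of the 16 was called between genotypes on any day. Their median log2 difference was 0.57, 1.04, and 1.06 for *Per1*-/- against WT cells on days 0, 2, and 4. Of all tested genes, limma called 0.0067 and 0.0268% in this comparison on days 2 and 4. With DESeq2 on the same libraries, the authors reported macrophage genes as higher in *Per1*-/- cells on both days. The lack of calls here therefore does not show equal levels. The part of the macrophages in the levels of mitosis genes was not tested.

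Other genes of the same pathway were counted from lists drawn up by function. For comparison, 19.7, 18.8, and 16.8% of all tested genes were called lower by day 2 in WT, *Per1*-/-, and labelled *Per2*-/- cells. By day 4 it was 20.9, 20.4, and 18.8% lower, and 3414, 3378, and 3218 of 14932 genes were called higher. Of 37 other mitotic genes, such as those of the kinetochore and the chromosomal passenger complex, 4, 11, and 2 had fallen by day 2 and 32, 33, and 31 by day 4 in WT, *Per1*-/-, and labelled *Per2*-/- cells, with median log2 changes of -1.06, -1.23, and -0.97 by day 4. The day 2 counts of these genes in WT and labelled *Per2*-/- cells stood below the share of all tested genes. With the common sum, 1, 2, and 0 were lower and 4, 1, and 2 higher by day 2, and 21, 29, and 23 were lower by day 4. The largest falls by day 4 in WT cells were those of *Trip13*, *Dlgap5*, and *Tacc3*, with -1.53, -1.81, and -1.49 for *Trip13*, -1.47, -1.76, and -1.32 for *Dlgap5*, and -1.45, -1.50, and -1.26 for *Tacc3* in the 3 genotypes. *Cdc25b*, a phosphatase that activates CDK1, went the other way, with 0.77, 0.80, and 0.72 by day 2 (adjusted p = 0.000124, 8.50e-05, and 0.000292) and 0.60, 0.49, and 0.43 by day 4, called in WT cells. *Cenpm* was called higher in WT cells by day 2, with 0.60, 0.09, and 0.32 in the 3 genotypes, and not by day 4, with -0.38, -0.49, and -0.44. None of the 15 core subunits of the APC/C was called in any comparison of days, with median changes of -0.11, -0.09, and -0.03 by day 4, while with FPKM rescaled to a common sum 3, 0, and 1 were called higher by day 4. The subunits of the ligase were thus not called where *Cdc20* and *Ube2c* were. Of 14 cohesin and constitutive spindle genes, 2, 2, and 2 fell and 2, 2, and 2 rose by day 4, against 0, 1, and 0 lower and 5, 3, and 3 higher with the common sum. *Mapre1* and *Tubg1*, which act at the plus and minus ends of microtubules, changed by -0.72, -0.67, and -0.74 for *Mapre1* and -0.76, -0.91, and -0.73 for *Tubg1*, falls that were not called with the common sum in WT cells. *Numa1* and *Clasp2*, which tether and stabilize spindle microtubules, rose by 0.65, 0.76, and 0.69 for *Numa1* and 0.77, 0.73, and 0.95 for *Clasp2*.

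Genes of DNA replication were counted in the same way. Their counts by day 2 in WT and labelled *Per2*-/- cells stood near the 19.7 and 16.8% of all tested genes called lower. Of 26, 4, 9, and 5 had fallen by day 2 and 17, 20, and 16 by day 4 in WT, *Per1*-/-, and labelled *Per2*-/- cells, or 7, 13, and 7 by day 4 with the common sum, and 2, 1, and 1 fell between days 2 and 4. In WT cells *Rrm2*, a subunit of ribonucleotide reductase, changed most by day 4, by -2.16, -2.25, and -1.92, followed there by *Orc1*, a subunit of the origin recognition complex, by -1.60, -1.30, and -0.99, and *Ccne1*, the cyclin of S phase entry, by -1.43, -1.56, and -1.44. Of 12 genes of the DREAM and B-MYB complexes, 5, 6, and 5 fell and 2, 2, and 1 rose by day 4, against 1, 2, and 2 lower and 3, 2, and 3 higher with the common sum. *Mybl2*, which encodes B-MYB, fell by day 4 with changes of -1.36, -1.43, and -1.14, while *Tfdp2* rose by 1.31, 1.23, and 1.37 and *Rbl2*, which encodes the pocket protein p130, changed by 0.58, 0.60, and 0.40. Of 6 E2F factors, 4, 4, and 4 fell by day 4, or 3, 3, and 3 with the common sum. *E2f7* and *E2f8*, which repress S phase genes, changed by -1.37, -1.47, and -1.20 for *E2f7* and -1.13, -1.36, and -1.19 for *E2f8* by day 4, and *E2f2* by 1.22, 0.94, and 1.06 by day 2. Of 6 G1 cyclins and kinases, 3, 3, and 3 fell by day 4, or 1, 1, and 3 with the common sum. *Cdk6* changed by -1.25, -0.95, and -1.21, *Ccnd2* by -0.88, -0.66, and -0.83, and *Ccnd1* by -0.83, -0.48, and -0.93. Of 7 CDK inhibitors, 3, 3, and 3 fell and 3, 3, and 3 rose. By day 4, *Cdkn1c*, which encodes p57, rose by 2.51, 2.47, and 1.61 on the log2 scale, *Cdkn1b*, which encodes p27, by 0.92, 0.81, and 0.78, and *Cdkn2c*, which encodes p18, by 0.78, 0.75, and 0.95, whereas *Cdkn1a*, which encodes p21, changed by -1.15, -0.97, and -1.35, *Cdkn2a* by -1.10, -0.93, and -1.20, and *Cdkn2b* by -1.64, -1.34, and -1.38. These 6 inhibitors were called in all 3 genotypes, and in WT cells also with the common sum.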

How the data were processed

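Bulk RNA-seq was made in 27 libraries, with 3 labelled biological replicates in each of 9 groups of genotype and day. The authors deposited 1 table of FPKM values for all genes, made per their methods by alignment to mm10 with HISAT2 (2.0.5) and counting with featureCounts (1.5.0-p3). FPKM times gene length gave whole fragments for 100% of values within 0.001, and the deposited FPKM carried a denominator other than the total of fragments, so libraries were also rescaled to a common sum and, after seeing the data, per total fragments. The libraries held 15815013 to 24264097 fragments, and the precision of low transcripts is limited by that depth. The authors tested counts with DESeq2, which was not run here.

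Changes were tested with limma (3.58.1, R 4.3.3), with a mean-variance trend, on log2(FPKM + 0.1), which understates changes of low genes. The 14932 genes whose mean reached 0.5 FPKM were fitted in 1 model of 9 groups, and p-values were adjusted by Benjamini-Hochberg over these genes in each comparison. Calls needed an adjusted p no higher than 0.05 and a log2 change no smaller than 0.58 in size. Beyond the labels nothing ties the replicates to separate cultures, so p-values measure the spread between these libraries. Alternatives were pseudocounts of 1 and 0.01, a minimum of 1 FPKM, no filter, a replicate block, a fit of the groups compared, the other scalings, voom weights on fragments, no minimum fold change, and leaving out each library.

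In simulated data for WT day 2 against day 0, 134 of 200 genes with a log2 change of -1 (67%) and 168 of 200 with -2 (84%) were recovered among 14932 genes, with 4 and 2 false calls. In the simulated *Per1*-/- against WT comparison of day 0, where no gene was changed, 0 calls were made. Only 200 genes were changed, against 2944 called lower and 3101 higher in the data. Noise was drawn for each gene alone, so these rates need not hold for the data. As a check of pairing, deviations from group means of same-numbered libraries were correlated. Between days within a genotype, the median r was 0.127 for libraries of the same number and -0.062 for those of other numbers. The main fit held no block and took no account of this. Every pair was over 0.1 between days 0 and 2 (0.150 to 0.294) and days 2 and 4 (0.140 to 0.284) of *Per1*-/- cells and between days 2 and 4 (0.127 to 0.196) of WT cells, and genotypes within a day were not paired.

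The members and the other lists were chosen by function with earlier results of these data known. All 42 members could be named. Values by library were given for up to 3 members of each role, those with the largest and smallest WT change by day 2 and the highest mean, and for members not called where most were. In other lists the 3 largest changes and those against the majority were named. Promoter windows came from RefSeq (GRCm38.p6) and were matched by symbol. Figures were drawn with matplotlib (3.10.9).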

Additional observations from a re-analysis of the deposited data

How the results depend on the processing

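No fit or setting gave a difference between genotypes for any of the 42 genes, and 31 to 42 genes were called lower by day 4 in a genotype under every setting. The counts of the 2 intervals and the test between them moved most. The counts of genes called lower by day 2 were 1, 5, and 1 in the 3 genotypes (in the order WT, *Per1*-/-, and labelled *Per2*-/-) with FPKM rescaled to a common sum, where 1 gene was higher in WT cells, and 1, 12, and 1 with FPKM per total fragments, a setting chosen after seeing the data. With no minimum fold change the WT count was 15, and with only the groups compared in the fit the *Per1*-/- count was 6. From day 2 to day 4, without a filter on low values the counts were 19, 6, and 15 in the 3 genotypes, and with only the groups compared they were 2 in *Per1*-/- cells and 8 in labelled *Per2*-/- cells. In *Per1*-/- cells this count was 35 with the common sum and 19 per total fragments. With the replicate block it was 37, and the block changed the counts of no other day comparison by over 1.5 times. In the test of the second interval less the first, the replicate block gave 12, 1, and 10 genes, the common sum 21, 6, and 16, and the scaling per total fragments 12 in WT and 8 in labelled *Per2*-/- cells. WT cells had 14 with only the groups compared and 1 with a pseudocount of 1 or without a filter. Without a filter, labelled *Per2*-/- cells had 0, and with no minimum fold change *Per1*-/- cells had 1. Leaving out 1 library at a time gave 5 to 12, 10 to 31, and 1 to 12 genes by day 2, 2 to 36, 0 to 29, and 4 to 37 from day 2 to day 4, 38 to 38, 39 to 42, and 36 to 40 from day 0 to day 4, and 0 to 7, 0 to 1, and 0 to 4 between intervals. The median change of the 42 genes then ranged from -0.49 to -0.36, -0.84 to -0.38, and -0.48 to -0.22 by day 2 and from -1.37 to -1.18, -1.59 to -1.09, and -1.28 to -0.96 by day 4. Among the genes whose values were given by library, log2 changes by day 2 with the common sum turned from below to above 0 in WT cells for *Bub1b* (0.41), *Bub3* (0.096), *Ccna2* (0.21), *Ccnb2* (0.13), *Cenpe* (0.062), *Kif11* (0.42), *Kif23* (0.19), *Mki67* (0.43), *Pttg1* (0.32), and *Smc4* (0.040), in *Per1*-/- cells for *Bub1b* (0.068), *Cenpf* (0.16), *Kif11* (0.058), *Mki67* (0.20), *Ncaph* (0.19), *Nusap1* (0.29), and *Pttg1* (0.20), and in labelled *Per2*-/- cells for *Bub1b* (0.20), *Ccna2* (0.13), *Ccnb2* (0.27), *Kif11* (0.28), *Kif23* (0.013), *Mki67* (0.23), and *Pttg1* (0.13). By day 4 it did so in WT cells for *Pttg1* (0.028) and in labelled *Per2*-/- cells for *Pttg1* (0.027). Per total fragments, the same happened by day 2 in WT cells for *Bub1b* (0.28), *Ccna2* (0.079), *Kif11* (0.29), *Kif23* (0.064), *Mki67* (0.30), and *Pttg1* (0.19), in *Per1*-/- cells for *Cenpf* (0.050), *Mki67* (0.088), *Ncaph* (0.082), *Nusap1* (0.18), and *Pttg1* (0.089), and in labelled *Per2*-/- cells for *Bub1b* (0.13), *Ccna2* (0.063), *Ccnb2* (0.21), *Kif11* (0.21), *Mki67* (0.16), and *Pttg1* (0.066). By day 4 it did so in labelled *Per2*-/- cells for *Pttg1* (0.026). With 1 library left out, changes by day 2 that crossed 0 ranged in WT cells from -0.098 to 0.083 for *Bub1b*, -0.0078 to 0.051 for *Cenpf*, -0.063 to 0.057 for *Kif11*, and -0.048 to 0.034 for *Mki67*, in *Per1*-/- cells -0.39 to 0.036 for *Cenpf*, -0.42 to 0.071 for *Mki67*, and -0.24 to 0.059 for *Nusap1*, in labelled *Per2*-/- cells -0.28 to 0.072 for *Bub1b*, -0.20 to 0.081 for *Ccnb2*, -0.0039 to 0.35 for *Cenpf*, -0.18 to 0.13 for *Kif11*, -0.31 to 0.079 for *Mki67*, and -0.16 to 0.16 for *Nusap1*. The change of *Pttg1* from day 2 to day 4 ranged in labelled *Per2*-/- cells from -0.061 to 0.016. Of the changes of single genes, 7185 kept their direction and side of the threshold, 299 lost a call, and 106 gained one. The causes of these changes were not tested.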
